A study of Rattus norvegicus with 4 samples.

Results

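The chaperones and folding enzymes of the endoplasmic reticulum (ER) are described here by 9 genes: Hspa5, Hsp90b1, Calr, Canx, P4hb, Pdia3, Pdia4, Pdia6 and Serpinh1. All probe sets of the Affymetrix Rat Genome array whose only gene symbol in the platform annotation is one of the 9 were taken, which gave 22 probe sets of 8740, and 9 of 4736 named genes, with control probe sets left out. No probe set with several symbols names one of these genes. Total RNA came from Rat1 cells, an established line of rat fibroblasts, on 4 arrays with 1 array per condition. Rat1-Omomer cells at 90 min of serum and Rat1-control cells at 90 min of serum had been moved from 0.1% serum, held for 48 h, to 10% serum, and Rat1-Omomer cells at 0 min and Rat1-control cells at 0 min were taken when serum was added back. Rat1-Omomer cells were stably infected with a retrovirus for Omomer, the Myc-interfering molecule Omomyc joined to a tamoxifen-responsive part of the oestrogen receptor, and Rat1-control cells with the control virus. All 4 samples had 4-OHT, the active form of tamoxifen, in the medium, during starvation by the sample labels but only from shortly before serum by the methods of the study. Whether a line is 1 clone is not given in the sources used here, and no array had cells without 4-OHT. For Rat1-Omomer at 0 min and Rat1-control at 90 min, 1 label field names the vector of the other cell line, and the titles, which match source and description, were followed.

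Proteins that enter the ER are folded there before they are secreted or sent to a membrane. Hspa5, also called BiP or GRP78, is the Hsp70 of the ER, and Hsp90b1, or GRP94, is its Hsp90. Calr and Canx, calreticulin and calnexin, hold glycoproteins by their sugar chains, and Pdia3 makes disulfide bonds in the proteins they hold. P4hb, Pdia4 and Pdia6 are protein disulfide isomerases, of which P4hb is also a subunit of collagen prolyl hydroxylase. Serpinh1, or HSP47, binds procollagen, a main product of fibroblasts. When unfolded proteins gather in the ER, the unfolded protein response raises many of these genes through the transcription factors Atf6 and Xbp1, and a promoter element for it, the ER stress response element (ERSE), is known. Serpinh1 is known instead as a target of heat shock factor.

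The promoters show this element directly. Exact matches to it were found in Hspa5, Hsp90b1, Calr and Canx but not in the other members that could be read. In the RefSeq promoter table of build GRCr8, which gives 250 bases before and 50 after a start site, 7 of the 9 genes matched. The ERSE was searched on both strands as CCAAT and CCACG with 9 bases of any kind between them, and was found in 4 of the 7 against 0.0657% of all 33469 promoters. The 4 windows that hold it are shown because they carry the element next to the genes whose values follow. Written 5′ to 3′, capitals mark the ERSE, and for Canx the second run in capitals is an E-box, CACGTG, the letters that Myc and Max bind.
Hspa5, chr3:38452766-38453065, plus strand: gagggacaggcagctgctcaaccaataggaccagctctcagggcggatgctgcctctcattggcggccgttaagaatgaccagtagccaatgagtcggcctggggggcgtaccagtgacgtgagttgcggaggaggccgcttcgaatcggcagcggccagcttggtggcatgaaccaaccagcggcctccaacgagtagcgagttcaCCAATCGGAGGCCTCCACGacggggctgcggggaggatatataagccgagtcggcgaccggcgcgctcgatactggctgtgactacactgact
Hsp90b1, chr7:23012244-23012543, minus strand: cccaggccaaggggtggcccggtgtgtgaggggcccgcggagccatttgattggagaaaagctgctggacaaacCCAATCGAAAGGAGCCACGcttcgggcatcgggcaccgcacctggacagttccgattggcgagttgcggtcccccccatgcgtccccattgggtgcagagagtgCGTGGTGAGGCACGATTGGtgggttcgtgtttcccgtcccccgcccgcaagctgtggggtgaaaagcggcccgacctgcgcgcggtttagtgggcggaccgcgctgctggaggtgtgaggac
Calr, chr19:40213117-40213416, plus strand: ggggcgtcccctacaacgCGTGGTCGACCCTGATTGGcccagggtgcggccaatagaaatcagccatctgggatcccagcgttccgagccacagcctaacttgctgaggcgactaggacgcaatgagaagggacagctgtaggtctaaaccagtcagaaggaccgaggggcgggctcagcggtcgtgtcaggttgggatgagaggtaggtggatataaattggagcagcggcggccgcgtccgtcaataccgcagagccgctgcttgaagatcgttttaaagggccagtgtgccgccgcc
Canx, chr10:35157808-35158107, minus strand: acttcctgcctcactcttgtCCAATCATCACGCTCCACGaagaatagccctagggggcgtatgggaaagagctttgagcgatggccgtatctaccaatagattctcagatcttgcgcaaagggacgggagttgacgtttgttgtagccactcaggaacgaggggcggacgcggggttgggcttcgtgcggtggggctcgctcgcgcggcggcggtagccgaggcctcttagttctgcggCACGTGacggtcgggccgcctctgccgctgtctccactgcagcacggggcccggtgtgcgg
Hsp90b1 held 2 elements, the second on the opposite strand, and the element of Calr was also on the opposite strand. In Hspa5 the element lay 43 to 25 bases before the start site, and in Hsp90b1 176 to 158 and 72 to 54 bases before it. In Canx it lay 230 to 212 and in Calr 232 to 214 bases before the start. The E-box of Canx, found on both strands since the letters read alike, lay 11 to 6 bases before the start and was the only one among the 7 promoters, against 6.42% of all promoters. Serpinh1 had no ERSE, but held TTCCAGAAGTTTC at chr1:163062999-163063011 on the minus strand, 35 to 23 bases before its start, a match to the heat shock element searched on both strands as GAA, TTC and GAA with 2 bases between neighbours, which 0.798% of all promoters hold. A variant of the ERSE, ATTGG and CCACG with 1 base between them, searched on both strands, was in none of the 7 and in 0.0508% of all promoters. The start sites used for Canx and Serpinh1 lie inside the genes as annotated, which reach 35157954 on chr10 and 163063177 on chr1. The E-box of Canx and the heat shock element of Serpinh1 thus lie within the annotated genes. Motifs did not overlap in these windows. Pdia4 and P4hb had no exact match to the motifs searched. Sites with a mismatch were not counted, so the other members may hold near matches to the ERSE. A match says only that the letters are there.

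Each value is an average difference of the MAS 4 software, by how much matched probes were brighter than mismatched ones, as an intensity on a linear scale. A floor of 1048, or 2 times a noise SD of 524 taken from the negative values, replaced any lower value, and a fold against the floor is a bound. Without replicates no spread between cultures was measured and no test between conditions was run, so that precision is limited by there being 1 array per condition. The disagreement between probe sets of one gene stands in as a partial measure of error. Over 389 genes with several probe sets that passed the floor on all arrays, the SD within a gene of the log2 fold was 0.31 for Rat1-control cells at 90 min over 0 min and 0.29 for Rat1-Omomer over Rat1-control cells at 0 min. It was 0.73 for Rat1-Omomer over Rat1-control cells at 90 min and 0.73 for Rat1-Omomer cells at 90 min over 0 min, so the comparisons with the Rat1-Omomer 90 min array carried the wider disagreement. The 99th percentile of values was also highest there, at 72057, and lay between 43961 and 54800.4 on the 3 other arrays. In 5 ID series of expressed sequence tags (rc_AA79, rc_AA80, rc_AA85, rc_AA87 and rc_AA89), 41.1% of 892 probe sets were lower in Rat1-Omomer than in Rat1-control cells at 90 min by 2-fold or more, against 8.46% of the 3156 others. Of the members, 1 probe set each of Canx, Pdia3 and Pdia6 belongs to these series. Without them, 19 of 19 probe sets were above 1 in Rat1-control cells at 90 min over 0 min, with a median log2 fold of 0.51, and 7 of 19 in Rat1-Omomer over Rat1-control cells at 90 min, with a median of -0.23. Of 12 fibroblast marker genes, 9 were above the floor on each array, while 0 of the 5 epithelial and 0 of the 3 endothelial markers measured were. Of 5 leukocyte markers 2 or 3 were above it, of 4 liver markers 2 on both Rat1-Omomer arrays and 0 on both Rat1-control arrays, and of 5 muscle markers 0 on the Rat1-Omomer 90 min array and 1 on each of the others. The liver values that passed lay at the floor, from 1049 to 1150. The muscle marker was Myh1 rc_AA799594_at, a probe set of the 5 ID series, with 608 in Rat1-Omomer cells at 90 min. The part of these markers in the results was not tested. In bulk RNA, fewer cells of a type and less RNA per cell cannot be told apart.

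Of the 22 probe sets, 20 lay above the floor on all 4 arrays. The exceptions were a dim probe set of Hspa5 (S63521_r_at), above it on 1 array, and one of Pdia3 (rc_AA892637_at), above it on none. The brightest was Hspa5 M14050_s_at, with a mean of 41985 over the 4 arrays. Levels of different genes are not set against each other, since probe sets differ in their brightness per RNA.

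**Figure D1:**
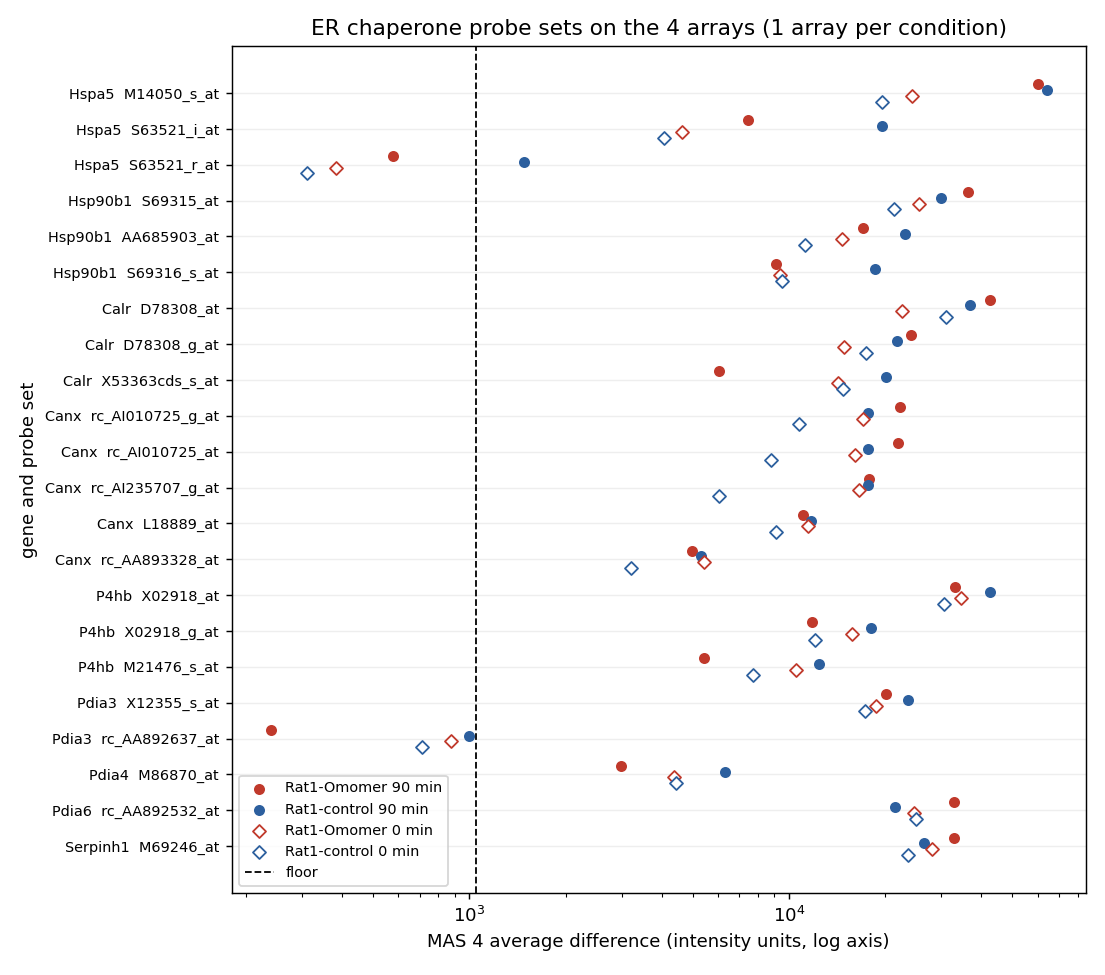
MAS 4 average differences (log axis) of the 22 probe sets of the ER chaperone genes on the 4 arrays, filled circles at 90 min and open diamonds at 0 min, red for Rat1-Omomer and blue for Rat1-control, with the floor of 1048 dashed. Hspa5 M14050_s_at stands at 60140 and 64018 at 90 min in Rat1-Omomer and Rat1-control cells, well to the right of both 0 min arrays, and the Canx probe sets have the Rat1-control 0 min array alone at the low end.

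In Rat1-control cells nearly all ER chaperone probe sets were higher after serum, with Hspa5 in front. At 90 min over 0 min, 20 of the 21 probe sets with a fold were above 1, against 44.0% of all probe sets with a fold. The median log2 fold of the 21 was 0.51, against -0.07 over all 3985 probe sets and 0.14 over the 737 bright ones with a mean of 10000 or more that were above the floor on all arrays. Of these bright probe sets, 63.1% were above 1. Higher by 2-fold or more were 5 of 21, against 5.45% of all, and higher by 3-fold or more were 2 of 21, against 1.93%. None of the 21 was lower by 2-fold or more, against 7.23% of all probe sets, nor by 3-fold or more, against 1.81%. By gene, all measured probe sets were higher for 8 of the 9 genes, and Pdia6 was the exception.

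Hspa5, the Hsp70 of the ER, had 60140 in Rat1-Omomer and 64018 in Rat1-control cells at 90 min, against 24190 in Rat1-Omomer and 19593 in Rat1-control cells at 0 min, by its brightest probe set. Both 90 min arrays were high and both 0 min arrays low. The fold was 3.27 in Rat1-control cells, ranked 60 of 3985, and 2.49 in Rat1-Omomer cells against their own 0 min array. A second probe set, S63521_i_at, had 7469 in Rat1-Omomer and 19551 in Rat1-control cells at 90 min, against 4613 and 4071 at 0 min in Rat1-Omomer and Rat1-control cells. Here the Rat1-control 90 min array stood alone, 4.80-fold above its 0 min array and ranked 33 of 3985, while the Rat1-Omomer fold was 1.62. The dim S63521_r_at had 578 in Rat1-Omomer and 1480 in Rat1-control cells at 90 min, against 382 and 311 at 0 min, so only Rat1-control at 90 min was above the floor, at least 1.41-fold. Both S63521 probe sets come from one sequence and are not independent of each other. Every probe set thus placed Hspa5 highest in Rat1-control cells at 90 min, but they differ on Rat1-Omomer cells at 90 min, 1.06-fold lower than Rat1-control by M14050_s_at and 2.62-fold lower by S63521_i_at.

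Hsp90b1, the Hsp90 of the ER, was also higher after serum in Rat1-control cells by every probe set, by smaller folds. S69315_at had 36262 in Rat1-Omomer and 29917 in Rat1-control cells at 90 min, against 25462 and 21296 at 0 min in Rat1-Omomer and Rat1-control cells. AA685903_at had 17015 and 23051 at 90 min, against 14623 and 11222 at 0 min, in Rat1-Omomer and Rat1-control cells. S69316_s_at had 9112 and 18540 at 90 min, against 9354 and 9486 at 0 min, in Rat1-Omomer and Rat1-control cells. The fold of Rat1-control cells at 90 min over 0 min was 1.40, 2.05 and 1.95 by these 3 probe sets. In Rat1-Omomer cells it was 1.42 and 1.16 by the first and second, and S69316_s_at was 1.03-fold lower. The direct ratio of both cell lines at 90 min was 1.21-fold higher in Rat1-Omomer cells by the first, 1.35-fold lower by the second and 2.03-fold lower by the third, so the gene has no single direction there.

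The lectin chaperones differed from each other. Calr, a soluble chaperone of glycoproteins, had 42559 in Rat1-Omomer and 36767 in Rat1-control cells at 90 min, against 22508 and 30951 at 0 min in Rat1-Omomer and Rat1-control cells, by D78308_at. D78308_g_at, made from the same sequence, had 24107 and 21704 at 90 min, against 14844 and 17469 at 0 min. The third probe set, X53363cds_s_at, had 6060 in Rat1-Omomer and 20172 in Rat1-control cells at 90 min, against 14249 and 14711 at 0 min. Rat1-Omomer at 90 min was thus the highest array by the first pair and the lowest by the third. Over Rat1-control at 90 min, Rat1-Omomer was 1.16-fold and 1.11-fold higher by the pair from D78308, and 3.33-fold lower by X53363cds_s_at, the lowest ratio of the 21. In Rat1-control cells all 3 gave 90 min above 0 min, by 1.19-fold, 1.24-fold and 1.37-fold.

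Canx, the membrane-bound partner of Calr, was the member that differed most between the cell lines before serum. By all 5 probe sets it was higher in Rat1-Omomer than in Rat1-control cells at 0 min, by 1.26-fold to 2.74-fold. The highest ratio was that of rc_AI235707_g_at, which had 17754 in Rat1-Omomer and 17672 in Rat1-control cells at 90 min, against 16588 in Rat1-Omomer and 6055 in Rat1-control cells at 0 min. The 3 first arrays lay close together and Rat1-control at 0 min alone was low. The brightest, rc_AI010725_g_at, had 22270 and 17646 at 90 min, against 17092 and 10760 at 0 min, in Rat1-Omomer and Rat1-control cells. Its companion rc_AI010725_at had 22012 and 17661 at 90 min, against 16108 and 8792 at 0 min, in Rat1-Omomer and Rat1-control cells. In each of these the Rat1-control 0 min array was again the lowest. The tag probe set rc_AA893328_at had 4958 and 5311 at 90 min, against 5424 and 3201 at 0 min. L18889_at had 11048 and 11726 at 90 min, against 11446 and 9080 at 0 min, with the same order of arrays at 0 min. Since the 2 comparisons share the Rat1-control 0 min array, the log2 fold of Rat1-control at 90 min, between 0.37 and 1.55 for the 5 probe sets, rests on the same low values as the ratio at 0 min. Against their own 0 min array, Rat1-Omomer cells at 90 min had log2 folds of Canx between -0.13 and 0.45, against 0.37 to 1.55 in Rat1-control cells.

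At 0 min the other members differed less between the cell lines. Over all 20 probe sets with a fold, 14 were higher in Rat1-Omomer cells, against 51.7% of all probe sets, and the median log2 ratio was 0.25, against 0.01 over all. Only rc_AI235707_g_at of Canx was higher by 2-fold or more, 1 of 20 against 1.41% of all, and none was higher by 3-fold or more, against 0.251%. None was lower by 2-fold or more, against 1.71%, or by 3-fold or more, against 0.503%. P4hb was higher by its 3 probe sets, by 1.13-fold to 1.36-fold, and Calr lower by its 3, by 1.03-fold to 1.38-fold. For 10 of the 20 the log2 ratio exceeded the SD within a gene of 0.29 in size. These were all 5 of Canx, P4hb X02918_g_at and M21476_s_at, Hsp90b1 AA685903_at and Hspa5 M14050_s_at, all higher in Rat1-Omomer cells, and Calr D78308_at, which was lower.

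The disulfide isomerases were lower in Rat1-Omomer than in Rat1-control cells at 90 min by all measured probe sets of P4hb, Pdia3 and Pdia4, but not Pdia6. Only P4hb M21476_s_at and Pdia4 had a log2 ratio larger in size than 0.73, the SD within a gene for this comparison. The ratios of Pdia3, Pdia6 and the other P4hb probe sets lay within it. P4hb had 33032 in Rat1-Omomer and 42489 in Rat1-control cells at 90 min, against 34510 and 30471 at 0 min in Rat1-Omomer and Rat1-control cells, by X02918_at. X02918_g_at, from the same sequence, had 11830 and 18074 at 90 min, against 15764 and 12051 at 0 min. M21476_s_at had 5419 in Rat1-Omomer and 12409 in Rat1-control cells at 90 min, against 10506 and 7718 at 0 min. Rat1-control at 90 min was the highest array for all 3. The 3 ratios of Rat1-Omomer over Rat1-control at 90 min were 1.29-fold, 1.53-fold and 2.29-fold lower.

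Pdia4, an isomerase with several thioredoxin-like parts, had 2990 in Rat1-Omomer and 6322 in Rat1-control cells at 90 min, against 4370 and 4443 at 0 min. Both 0 min arrays lay together, Rat1-control was 1.42-fold higher at 90 min and Rat1-Omomer 1.46-fold lower, and the ratio between the cell lines at 90 min was 2.11-fold lower. Pdia3, which works with Calr and Canx, had 20070 and 23603 at 90 min, against 18710 and 17306 at 0 min, a ratio 1.18-fold lower in Rat1-Omomer cells at 90 min. Its second probe set stayed under the floor, with 239 and 1001 at 90 min against 875 and 712 at 0 min, and gives no fold. Pdia6 ran the other way: it had 32883 in Rat1-Omomer and 21542 in Rat1-control cells at 90 min, against 24583 and 24941 at 0 min. At 90 min the ratio of Rat1-Omomer over Rat1-control was 1.53, the highest of the 21. Pdia6 was also the one member lower in Rat1-control cells at 90 min than at 0 min, by 1.16-fold. Its 1 probe set, rc_AA892532_at, belongs to the tag series described above, most of whose ratios at 90 min ran the opposite way, with a median log2 ratio of -0.69.

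Serpinh1, the collagen chaperone, had the smallest fold after serum in Rat1-control cells among the genes that were higher there. It had 32933 in Rat1-Omomer and 26428 in Rat1-control cells at 90 min, against 28027 in Rat1-Omomer and 23612 in Rat1-control cells at 0 min. Its folds at 90 min over 0 min were 1.18 in Rat1-Omomer and 1.12 in Rat1-control cells, both smaller than the disagreement between probe sets of one gene. Its ratio of Rat1-Omomer over Rat1-control was 1.25 at 90 min and 1.19 at 0 min.

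In Rat1-Omomer cells the picture after serum depended on the probe sets and the scaling. At 90 min over their own 0 min array, 12 of 20 probe sets were higher, against 54.0% of all probe sets, with a median log2 fold of 0.16, against 0.09 over all. Of the bright probe sets, 69.3% were higher, with a median of 0.39, so the chaperones lay below these. With median scaling 15 of the 20 chaperone probe sets were higher, and with quantile normalization 10 of 20. By the brightest probe set of each gene 7 of 9 were higher, with a median of 0.38, against 8 of 9 and 0.48 in Rat1-control cells. Higher by 2-fold or more was 1 of 20 (Hspa5 M14050_s_at), against 9.19% of all, and lower by 2-fold or more was 1 (Calr X53363cds_s_at), against 17.5%. None was higher by 3-fold or more, against 2.9%, or lower by as much, against 9.65%. Against Rat1-control cells at 0 min, Rat1-Omomer cells at 90 min had 4 of 20 higher by 2-fold or more, against 10.1%, namely Hspa5 M14050_s_at at 3.07-fold and 3 of Canx at 2.07-fold to 2.93-fold. Hspa5 alone was higher by 3-fold or more, 1 of 20 against 2.8%. In this comparison 15 of 20 were above 1, against 54.4% of all, or 17 with median scaling and 13 with quantile normalization. Of the bright probe sets, 69.5% were above 1, with a median log2 fold of 0.43, against 0.46 for the chaperones. Calr X53363cds_s_at was lower by 2-fold or more, 1 of 20 against 18.2%, and none by 3-fold or more, against 9.95%.

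The serum responses of both cell lines share no array and can be set side by side. The log2 response was smaller in Rat1-Omomer than in Rat1-control cells for 15 of 20 probe sets, against 45.4% of all 3766 probe sets with both responses. The median difference, Rat1-Omomer minus Rat1-control, was -0.55 for the 20 and 0.11 over all. By the brightest probe set of each gene, 5 of 9 were smaller in Rat1-Omomer cells and 4 larger, with a median difference of -0.33. Hspa5, Canx, P4hb, Pdia3 and Pdia4 had smaller responses in Rat1-Omomer cells by every probe set with both. Larger responses in Rat1-Omomer cells were those of Calr by the pair from D78308, Pdia6, Serpinh1 and Hsp90b1 S69315_at, the last by only 0.02. The directions were opposite for 9 of 20, near the share of 39.8% over all, or for 6 of 20 with median scaling and 11 of 20 with quantile normalization. For 11 of the 20 the difference was no larger than 0.73, the SD within a gene for Rat1-Omomer cells at 90 min over 0 min. The probe sets of a gene are not independent, and the count over probe sets leans on Canx with 5.

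**Figure D2:**
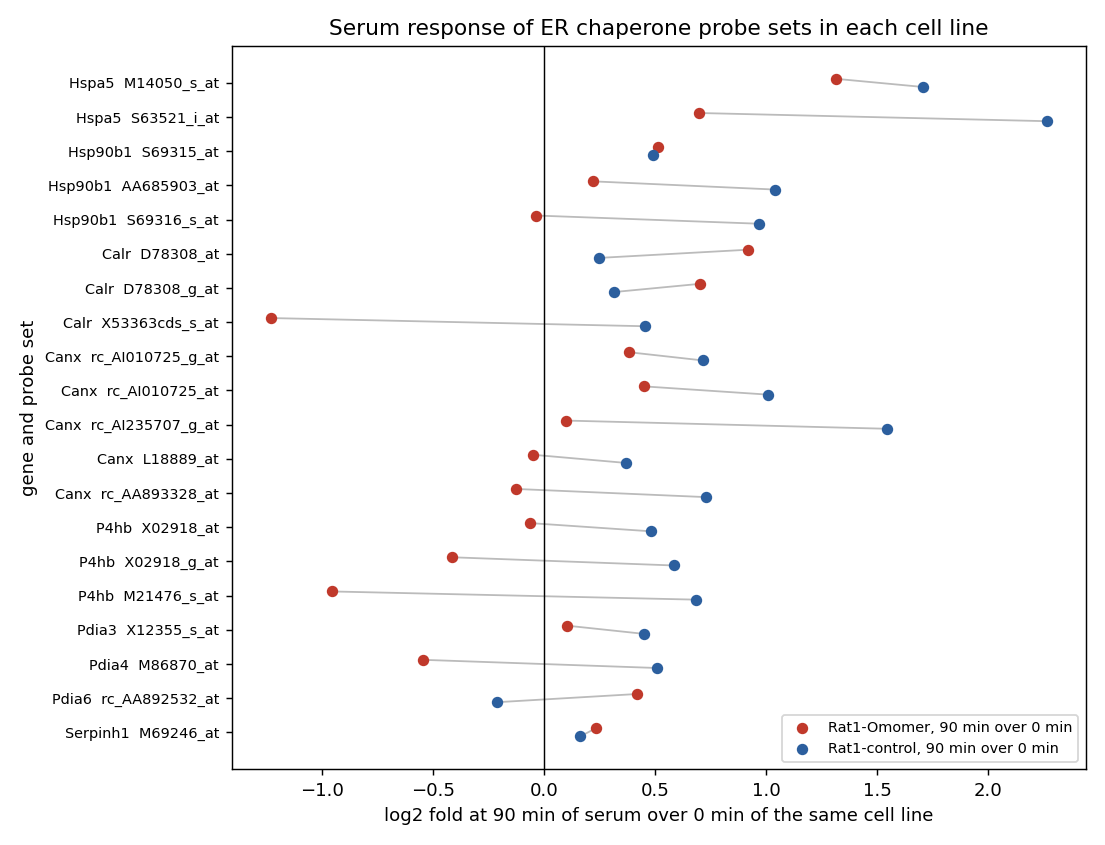
Log2 fold at 90 min of serum over 0 min for the 20 probe sets measured in both cell lines, red for Rat1-Omomer and blue for Rat1-control, each against its own 0 min array, with a grey line joining both. The blue points lie above 0 for all but Pdia6, and for 15 of 20 probe sets the red point lies to the left of the blue one.

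In the direct comparison at 90 min, 8 of 21 probe sets were above 1, against 58.2% of all, while 0 of 21 probe sets were higher by 2-fold or more in Rat1-Omomer cells, against 10.1% of all, and 5 of 21 lower by 2-fold or more, against 15.7%. These 5 were Calr X53363cds_s_at, Hspa5 S63521_i_at, P4hb M21476_s_at, Pdia4 and Hsp90b1 S69316_s_at. Only the first was lower by 3-fold or more, 1 of 21 against 8.57% of all, and none was higher by 3-fold or more, against 2.22%. The median log2 ratio was -0.10, against 0.18 over all probe sets and 0.33 over the bright ones. With the brightest probe set of each gene alone the median was 0.21, with 5 genes higher and 4 lower in Rat1-Omomer cells, so the direction for the group turns with the choice of probe set.

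The probe sets of one gene parted by brightness. In all 5 genes with several probe sets above the floor on every array, the brightest probe set gave the highest ratio of Rat1-Omomer over Rat1-control at 90 min, and dimmer probe sets gave lower ratios in order. Over all 389 such genes the brightest gave the highest ratio in 56.3%, and the ratios fell in order in 52.4%. Brightness here was the mean over the 4 arrays, which include both arrays of the ratio. When brightness was taken from the Rat1-control 0 min array alone, the brightest was again highest in all 5, against 49.1% of the 389. The ratios then fell in order in 4 of the 5 genes, against 45.5%. In Rat1-control cells at 90 min over 0 min the brightest gave the lowest fold in 4 of the 5 genes, against 37.3% of the 389, or 45.8% by brightness on the Rat1-control 0 min array. The pattern was noticed after the values were seen, and what lies behind it was not tested.

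In each list, the highest and lowest probe sets named are among those above the floor on both arrays. Genes of the unfolded protein response and of ER-associated degradation had a similar median in Rat1-control cells. At 90 min over 0 min, 9 of 16 probe sets of the list were higher and 5 were higher by 2-fold or more, with a median log2 fold of 0.61. Dnajb9, an ER co-chaperone of Hspa5, was 2.46-fold higher and Trib3, a pseudokinase induced by amino acid and ER stress, 2.39-fold. Trib3 had 1187 in Rat1-control cells at 0 min, close to the floor. On the Rat1-Omomer 90 min array Dnajb9 was under the floor, at 758, against 6915 in Rat1-control cells at 90 min. Lowest among these were Nupr1, a stress-induced nuclear protein, 1.51-fold lower, and the stress factor Atf3, 1.27-fold lower. Over Rat1-control cells at 90 min, Rat1-Omomer cells had a median log2 ratio of 0.38, with 2 of 16 higher by 2-fold or more and 2 lower by 2-fold or more. Nupr1 was 3.28-fold higher and Ppp1r15a, which restores translation after stress, 2.03-fold higher. Vcp, the ATPase that pulls proteins out of the ER membrane, was 2.05-fold lower by U11760_at, but its other probe set had a log2 ratio of 0.34, and Eif2ak3, the ER stress kinase PERK, was 1.52-fold lower. Ddit3, the stress factor CHOP, was named after its values were seen: it had 4970 in Rat1-Omomer and 3936 in Rat1-control cells at 90 min, against 3069 and 1903 at 0 min.

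Other enzymes of ER folding and sugar processing were near their 0 min level in Rat1-control cells at 90 min, with a median log2 fold of 0.04 and 0 of 24 probe sets higher or lower by 2-fold or more. Above 1 were 14 of the 24. Calu, a calcium-binding protein of the ER, was highest at 1.53-fold, then Rcn3 at 1.35-fold, and lowest were Erp29, 1.39-fold lower by U36482_g_at, and Rcn2, 1.35-fold lower. In Rat1-Omomer over Rat1-control cells at 90 min the median was -0.24. Lower by 2-fold or more were 6 of 24, against 15.7% of all probe sets, and none was higher by 2-fold or more, against 10.1%. Dad1, a subunit of the enzyme that attaches sugar chains, was higher by 1.74-fold and 1.35-fold in 2 probe sets and 3.02-fold lower by another, and Rcn3 was 2.50-fold lower by rc_AA875665_g_at.

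Genes of translocation into the ER stood at a median log2 fold of 0.14 in Rat1-control cells at 90 min over 0 min, with 6 of 10 probe sets higher. Sec61a1, the channel subunit, was the only one of the 10 higher by 2-fold or more, at 2.56-fold. Next came Ssr3, a subunit of the translocon-associated complex, at 1.30-fold, and lowest were Sec62 and Sec11a, both 1.13-fold lower. In Rat1-Omomer over Rat1-control cells at 90 min, 3 of 10 were lower by 3-fold or more, among them Ssr3, 11.99-fold, and Sec62, 6.75-fold, both from the 5 ID series named above. Ssr3 was not lower by its other probe set, Z14030_at, with a log2 ratio of 0.29. Ssr4, of the same complex, was 1.63-fold and 1.30-fold higher by 2 of its 3 probe sets, and the third had a log2 ratio of -0.10.

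The list of collagens and their modifying enzymes also held other matrix proteins, among them Fn1 and Sparc. It stood at a median log2 fold of 0.22 in Rat1-control cells at 90 min over 0 min. Of its probe sets, 23 of 32 were higher, 0 of them by 2-fold or more, and 2 were lower by 2-fold or more. Fn1, fibronectin, at 1.84-fold by U82612cds_at and Col5a1 at 1.74-fold were highest, and Loxl1, a lysyl oxidase, was lowest by both its probe sets, 2.39-fold and 2.63-fold lower. The other probe sets of Fn1 had log2 folds between -0.15 and 0.34. In Rat1-Omomer over Rat1-control cells at 90 min the median was -0.11, with 2 of 32 higher by 2-fold or more and 6 lower by 2-fold or more. All of these 6 except Fn1 X05834_at came from the 5 ID series named above. Col11a1 was 2.33-fold higher by AJ005396_at. Sparc, a collagen-binding protein, was 1.87-fold higher by one of its 4 probe sets and 5.35-fold lower by another, and Plod3, a collagen lysyl hydroxylase, was 5.73-fold lower by rc_AA892859_g_at. The lower probe sets of Sparc and Plod3 are both from the 5 ID series.

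Cytosolic heat shock proteins stood at a median log2 fold of 0.21 in Rat1-control cells at 90 min over 0 min. Of 27 probe sets 22 were higher, 5 of them by 2-fold or more, and 1 was lower by 2-fold or more. Hsf1, the heat shock factor, was 2.53-fold higher, and Hsph1 2.21-fold higher by AA108277_at. This Hsph1 probe set had 1081 at 0 min, close to the floor, and the other had a log2 fold of 0.90. Hspb1 was 2.15-fold lower by rc_AA998683_at and Hsp90ab1 1.22-fold lower by rc_AI008074_s_at. The 3 other probe sets of Hspb1 were higher, with log2 folds of 0.55 to 1.03, as were the 3 others of Hsp90ab1, with 0.08 to 0.21. In Rat1-Omomer over Rat1-control cells at 90 min the median was 0.38. Dnajb1, an Hsp40 of the cytosol, was higher by 3.34-fold and 2.38-fold in 2 probe sets, and lowest among these were Hsph1, 2.09-fold lower, and Hsf1, 1.71-fold lower.

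**Figure D3:**
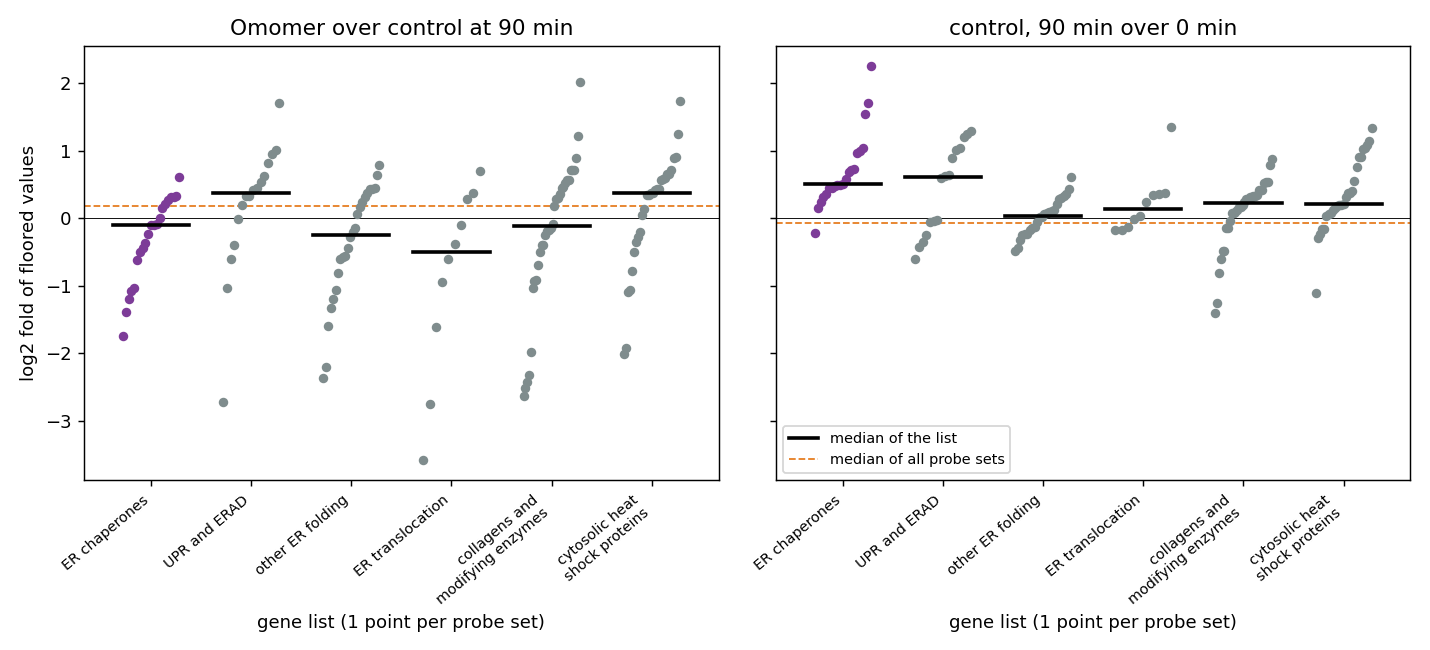
Log2 fold of floored values for each probe set of the ER chaperones (purple) and of 5 other gene lists (grey), left for Rat1-Omomer over Rat1-control cells at 90 min and right for Rat1-control cells at 90 min over 0 min, with the median of each list (black) and of all probe sets (dashed). UPR and ERAD stand for the unfolded protein response and ER-associated degradation. On the right the chaperones (median 0.51) and the unfolded protein response (0.61) lie highest, and on the left the points of every list scatter widely.

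The genes with the pattern most like that of Hspa5, by its brightest probe set M14050_s_at, were sought among the brightest probe sets of 1074 genes. The measure was the distance between log2 folds over Rat1-control at 0 min on the 3 other arrays. Nearest were Kcnmb1, at a distance of 0.30, Ptp4a1, a phosphatase, at 0.30, Nop58, a nucleolar protein, at 0.44, Enpp1 at 0.46 and Tpm1, a tropomyosin, at 0.49. Nop58 had 10044 in Rat1-Omomer and 9863 in Rat1-control cells at 90 min, against 5277 and 3817 at 0 min. The ER chaperones themselves were left out of the search. Hspa5 S63521_i_at, which differed from M14050_s_at in Rat1-Omomer cells at 90 min, was not used for it.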

How the data were processed

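Total RNA of 4 samples of Rat1 cells was hybridized to Affymetrix Rat Genome GeneChips, 1 array per condition. The authors processed the scans with Microarray Analysis Suite version 4 at default settings, and the deposited values are intensities, linear average differences that can be negative, scaled to nearly the same mean (trimmed means 2503 to 2505). Conditions were taken from the titles, since the transfection field of 2 samples names the other cell line. Of 8740 probe sets, 7006 had 1 symbol in the platform annotation. The noise SD was 1.4826 times the median size of the negative values, 524. Folds are ratios of values floored at 2 times this SD, counted at 2-fold and 3-fold. Where both arrays were under it, no fold was given. With 1 array per condition no test was run. The fold calls were tested on simulated data, with large changes placed in bright probe sets only. This does not show how well the smaller changes described here are called. Members, lists and rules were chosen with earlier results of these data known. Named genes were all members by every probe set. Of each other list they were the 2 highest and 2 lowest probe sets among those above the floor on both arrays, in 2 comparisons. Genes like Hspa5, by its brightest probe set, were the 5 nearest whose mean was 3 times the floor or more. Alternatives were other floors, scalings, fold forms and choices of probe sets. Promoters came from RefSeq (GRCr8). Python 3.11.15, numpy 2.4.6, pandas 2.3.3, scipy 1.17.1 and matplotlib 3.10.9 were used.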

Additional observations from a re-analysis of the deposited data

Results flagged for a closer look

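For 9 of the 20 probe sets measured in both cell lines, serum went with a value in one direction in Rat1-Omomer cells and in the other in Rat1-control cells, against 39.8% of all 3766 probe sets. The count is near this share and does not set the members apart. Some of the 9 had log2 folds close to 0 in Rat1-Omomer cells, such as -0.04 for Hsp90b1 S69316_s_at and -0.05 for Canx L18889_at. The difference was not tested, since there is 1 array per condition. The log2 response of Rat1-Omomer minus that of Rat1-control cells was -1.69 for Calr X53363cds_s_at, and -1.64, -0.999 and -0.54 for P4hb M21476_s_at, X02918_g_at and X02918_at. It was -1.06 for Pdia4, -1.005 for Hsp90b1 S69316_s_at, and -0.86 and -0.42 for Canx rc_AA893328_at and L18889_at. Pdia6 was the only one with the opposite sign, at 0.63. P4hb is the only gene with several probe sets that was lower at 90 min in Rat1-Omomer cells and higher in Rat1-control cells by all of them, with log2 folds of -0.06 to -0.96 in Rat1-Omomer and 0.48 to 0.69 in Rat1-control cells. With median scaling the log2 folds in Rat1-Omomer cells turned to 0.02 for P4hb X02918_at, 0.04 for Canx L18889_at and 0.05 for Hsp90b1 S69316_s_at, which left 6 of 20 in opposite directions.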

How the results depend on the processing

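No paired analysis was possible because there is 1 array per condition. Of 224 recomputed counts and medians over the ER chaperone probe sets, 210 kept their value within 1.5 times or within the SD within a gene. That SD was 0.73 for Rat1-Omomer over Rat1-control at 90 min, so a median that changed sign there counted as kept. Counts of 0 that stayed at 0 also counted as kept. Other floors and fold forms could change little, since nearly all of these probe sets lay above the floor on all arrays. With 1 probe set per gene, which leaves 9, Rat1-control cells at 90 min over 0 min had 1 probe set higher by 2-fold or more (5 of 21 with all) and 1 by 3-fold or more (2 of 21), Rat1-Omomer over Rat1-control at 0 min 0 higher by 2-fold or more, and Rat1-Omomer at 90 min over Rat1-control at 0 min 2 higher by 2-fold or more and 0 lower by 2-fold or more. By the same choice, Rat1-Omomer over Rat1-control at 90 min had 1 lower by 2-fold or more and 0 by 3-fold or more, and Rat1-Omomer at 90 min over its own 0 min array 0 lower by 2-fold or more. In the serum response, whose alternatives were chosen after seeing the data, it left 5 smaller in Rat1-Omomer than in Rat1-control cells (15 of 20 with all) and 3 in opposite directions (9 of 20). With median scaling, Rat1-Omomer at 90 min over Rat1-control at 0 min had 2 higher by 3-fold or more, and over its own 0 min array 2 higher by 2-fold or more. With quantile normalization both counts were 0. The median log2 fold ranged over all settings from 0.48 to 0.60 for Rat1-control at 90 min over 0 min, and from -0.25 to 0.21 for Rat1-Omomer over Rat1-control at 90 min, where only 1 probe set per gene turned it positive. For Rat1-Omomer at 90 min over its own 0 min array it ranged from -0.0022, with quantile normalization, to 0.38. Of single probe sets only the dim Hspa5 S63521_r_at moved beyond the SD within a gene, to log2 folds of 1.50 and 1.69 in Rat1-control cells with a floor of 1 noise SD and with the difference form of the fold, and to -1.36 between the cell lines at 90 min under both.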
